A study of Mus musculus with 14 samples.

Results

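Ring1b binding was compared between mouse PDGF neural stem cells expressing K27M mutant histone H3.3 (K27M) and the same kind of cells expressing wild-type H3.3 (H3WT), both kept for 12 days in DMSO, the solvent control. Every peak of the K27M and H3WT Ring1b lists was taken, 1808 in K27M and 1754 in H3WT, which together are 3562 of the 100144 peaks in the 12 lists of the series. The series held 14 samples and measured binding by chromatin immunoprecipitation with sequencing (ChIP-seq), with 1 Ring1b library per genotype. Its design text presents the cells as a mouse form of diffuse intrinsic pontine glioma (DIPG), a childhood tumour of the brainstem in which this histone mutation is common. The Ring1b antibody was made in-house, and how PDGF or the histone was delivered, and whether a genotype was 1 clone, was not given in the sources used here. A peak list cannot check the cell type, and with 1 Ring1b library per genotype no difference below has a replicate check or a test.

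Polycomb proteins keep developmental genes silent in cells that do not need them. Polycomb repressive complex 2 (PRC2), with its subunits Ezh2 and Suz12, trimethylates lysine 27 of histone H3 (H3K27me3), and the K27M histone, in which methionine takes the place of that lysine, inhibits PRC2. Ring1b, the product of Rnf2, is the ubiquitin ligase of Polycomb repressive complex 1 (PRC1) and acts on histone H2A. Canonical PRC1 holds a Cbx subunit that binds H3K27me3, whereas variant PRC1 can reach DNA without it, and the variant with Kdm2b and Pcgf1 binds unmethylated CpG islands. Ring1b sites may therefore lie with or without H3K27me3.

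The promoters of 4 genes are shown as examples, each covered by a Ring1b peak in 1 list and not in the other. Sequences are RefSeq windows of 300 bases on build GRCm38.p6 around an annotated start, on the strand of the gene, with every CG in capitals. The windows are Mab21l2 at chr3:86548234-86548533 on the minus strand, Hoxa2 at chr6:52164782-52165081 on the minus strand, Ferd3l at chr12:33928175-33928474 on the plus strand and Igf2bp2 at chr16:22163250-22163549 on the minus strand.
Mab21l2: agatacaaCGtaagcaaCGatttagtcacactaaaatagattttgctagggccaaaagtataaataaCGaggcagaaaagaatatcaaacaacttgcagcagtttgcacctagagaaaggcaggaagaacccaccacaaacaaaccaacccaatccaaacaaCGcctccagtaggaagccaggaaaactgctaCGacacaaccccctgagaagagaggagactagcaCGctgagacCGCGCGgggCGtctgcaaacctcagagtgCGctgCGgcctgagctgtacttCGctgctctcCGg
Hoxa2: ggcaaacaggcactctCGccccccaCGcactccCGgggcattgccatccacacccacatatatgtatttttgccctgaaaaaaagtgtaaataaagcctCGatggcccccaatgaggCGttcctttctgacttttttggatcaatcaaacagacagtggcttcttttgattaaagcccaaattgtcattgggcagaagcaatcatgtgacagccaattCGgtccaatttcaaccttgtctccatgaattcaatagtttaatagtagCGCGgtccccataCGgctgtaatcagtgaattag
Ferd3l: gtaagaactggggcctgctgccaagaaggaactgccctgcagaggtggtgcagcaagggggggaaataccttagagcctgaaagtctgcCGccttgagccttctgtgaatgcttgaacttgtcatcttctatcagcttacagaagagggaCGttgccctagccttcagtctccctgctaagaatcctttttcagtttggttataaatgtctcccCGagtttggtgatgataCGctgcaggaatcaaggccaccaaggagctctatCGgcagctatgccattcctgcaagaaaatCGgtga
Igf2bp2: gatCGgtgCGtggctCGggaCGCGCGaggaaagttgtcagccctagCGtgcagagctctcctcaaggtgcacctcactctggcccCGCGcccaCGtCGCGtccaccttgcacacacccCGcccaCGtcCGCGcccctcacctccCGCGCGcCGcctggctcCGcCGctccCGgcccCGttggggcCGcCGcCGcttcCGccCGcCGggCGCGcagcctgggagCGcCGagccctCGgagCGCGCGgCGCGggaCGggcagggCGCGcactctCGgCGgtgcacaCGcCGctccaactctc

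The first 3 windows lay entirely under a K27M peak and had no H3WT peak. They held 14, 9 and 6 CG. The Igf2bp2 window held 47 CG and lay entirely under an H3WT peak, with no K27M peak over it. The same held for the window of Tmem126b, which is not shown and had 21 CG. Over all genes, 300-base promoters of genes with Ring1b at a gene end had a median of 27 CG where the peak was in K27M alone, 29 where it was in H3WT alone and 26 where it was in both, against 12 for genes with no Ring1b peak. At least 15 CG were found in 85.2% of the 338 promoters of the K27M-alone class, 85.1% of the 188 of the H3WT-alone class and 82.9% of the 686 of the shared class. The share was 47.3% of all 21045 promoters of this length, of which 95.5% held at least 1 CG. Ring1b-bound promoters were thus CG-rich in all 3 classes, while Mab21l2, Hoxa2 and Ferd3l fall below 15 CG.

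The other lists give the context. H3K27me3 peaks covered 13.5 and 65.5 Mb in the K27M libraries and 43.6 and 217 Mb in the H3WT libraries (replicates 1 and 2), so replicate 2 was the broader list in both genotypes. Suz12 had 1252 peaks in K27M and 631 in H3WT, with 1 library each. Read depth is unknown for every list, and peak number and width can both depend on depth and enrichment. The effect of depth on the Ring1b values was not tested.

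The lists were nearly equal in number of Ring1b peaks but not in the length under them. K27M had 1.03 times as many peaks as H3WT and 1.46 times the covered length, 7.54 Mb in K27M and 5.17 Mb in H3WT. The median peak was 1.77 kb wide in K27M and 1.70 kb in H3WT, so the difference lay among wide peaks. Peaks of at least 10 kb numbered 180 in K27M and 79 in H3WT, and peaks of at least 20 kb numbered 67 in K27M and 16 in H3WT. The widest K27M peak, 117 kb over the Hoxa cluster, compares with 69.2 kb for the widest H3WT peak.

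An H3WT peak overlapped 1126 of the K27M peaks, or 62.3% (exact 95% interval 60.0 to 64.5%), and a K27M peak overlapped 1368 of the H3WT peaks, or 78.0% (76.0 to 79.9%). These intervals cover the counting of peaks only. Joining overlapping peaks of the lists gave 2188 sites, of which 682 had a K27M peak alone, 386 an H3WT peak alone and 1120 a peak in both (shared sites). Of the 682, 86 lay in the distal part of chromosome 10, against 1 of the 386. Most of the extra K27M length lay at shared sites. There, 1.90 Mb of K27M length, 25.2% of the K27M total, fell outside H3WT peaks, against 0.111 Mb of H3WT length outside K27M peaks, 2.15% of the H3WT total. Sites of 1 library alone held 1.15 Mb in K27M and 0.573 Mb in H3WT. The K27M list covered 86.8% of the H3WT length, and the H3WT list 59.5% of the K27M length.

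**Figure D1:**
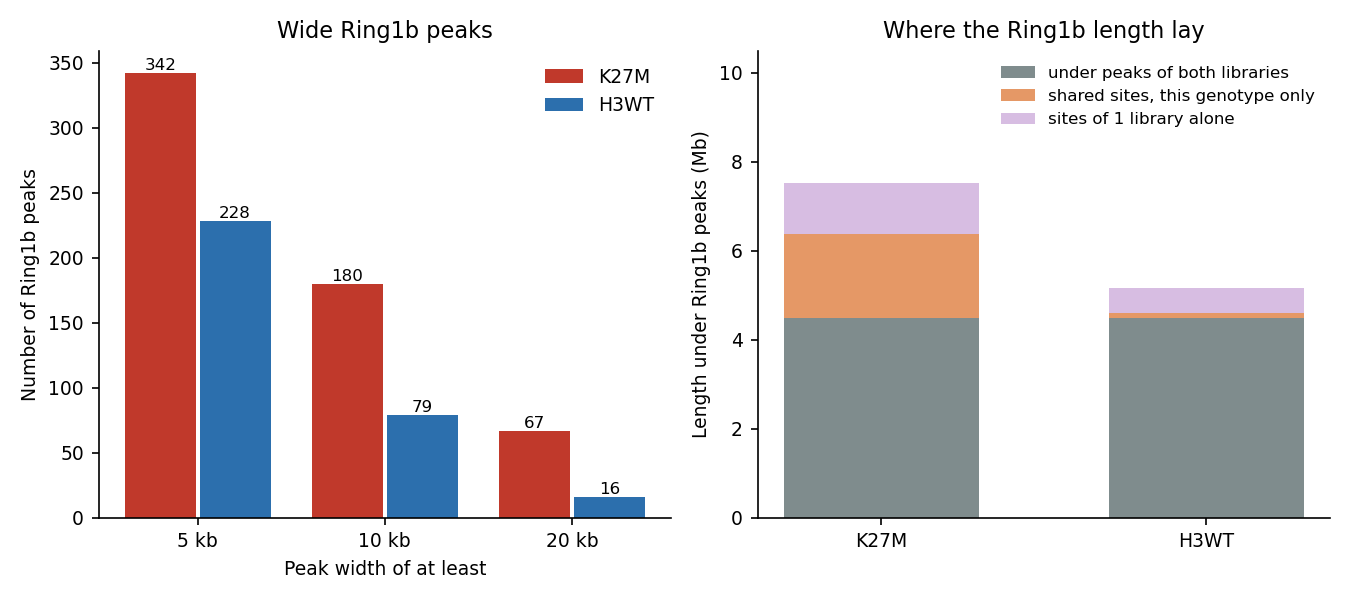
Left, number of Ring1b peaks (y axis) at least 5, 10 or 20 kb wide (x axis) in the K27M and H3WT libraries. Right, length under Ring1b peaks in Mb (y axis) for each library, split into length under peaks of both libraries, length at shared sites that the other library lacked, and length at sites of 1 library alone. The 2 bars share the 4.49 Mb at their base and differ most in the middle segment, 1.90 Mb in K27M and 0.111 Mb in H3WT.

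Shared Ring1b sites were longer in K27M in 840 of 1120 cases, with a median difference of 0.22 on the log2 scale of K27M over H3WT length (1.16-fold). At least 1.5-fold wider in K27M were 268 sites (23.9%), and at least 1.5-fold narrower were 31 (2.77%). The last site counted as wider had a ratio of 1.503 and the next one below had 1.4996. On the other side, the last site counted as narrower had 0.6667 and the next one 0.6695. The extra length was found beyond the ends of the H3WT peaks and in the gaps between them. Beyond the outer ends lay 1.49 Mb, and in gaps between H3WT peaks of the same site lay 0.411 Mb. K27M peaks reached at least 1 kb past both ends of the H3WT peaks at 121 sites and past 1 end at 190 sites, whereas H3WT peaks reached that far past both ends of the K27M peaks at 5 sites and past 1 end at 5.

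At 155 shared sites K27M had fewer peaks than H3WT, and 156 K27M peaks stood where H3WT had 403, so that peaks separate in H3WT were joined in K27M. These sites had a median length of 15.6 kb in K27M and 9.41 kb in H3WT. The opposite, more K27M than H3WT peaks, was seen at 5 sites. Sites at least 1.5-fold wider in K27M were more frequent among wide sites. Among the 280 sites with the smallest mean width, 7.86% were at least 1.5-fold wider in K27M, and among the 280 sites with the largest mean width the share was 37.5%. No deposited Ring1b peak was narrower than 1.001 kb, which limits the ratio that the narrowest sites can reach.

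The shared site with the largest extra K27M length was at Mab21l2, a gene needed for eye and body wall development that lies within the span of a larger gene, Lrba. Ring1b covered 55.0 kb in 1 peak in K27M and 4.59 kb in 3 peaks in H3WT at this site (chr3:86523332-86578350), a 12.0-fold difference. H3K27me3 covered all 55.0 kb in both K27M libraries, and 5.67 and 54.7 kb in the H3WT libraries. The second site was at Alx1, a homeobox gene of craniofacial development (chr10:103002173-103039221), with 37.0 kb in K27M and 8.12 kb in H3WT. It lies in the distal part of chromosome 10, where K27M peaks were unusually many, as described below.

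Otx2, a homeobox gene of the forebrain and midbrain, had a site of 31.5 kb in K27M and 13.3 kb in H3WT (chr14:48650387-48681914). The site at Pax9, a paired-box gene of pharyngeal pouch and tooth development, measured 33.9 kb in K27M and 14.2 kb in H3WT (chr12:56680848-56714698), and the site at Bsx, a hypothalamic homeobox gene, 31.2 kb in K27M and 13.3 kb in H3WT (chr9:40865216-40896416). Each of these sites was 1 peak in K27M and 2 in H3WT. All of the Pax9 and Bsx site length lay under H3K27me3 in all 4 libraries, so at these sites the mark extended past the H3WT Ring1b peaks in H3WT cells as well.

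At Cdkn2a, which encodes the cell cycle inhibitors p16Ink4a and p19Arf, Ring1b covered 28.9 kb in 1 K27M peak and 11.4 kb in 3 H3WT peaks (chr4:89267121-89295977). H3K27me3 covered 27.6 and 28.1 kb of this site in the K27M libraries, and 22.2 and 27.1 kb in the H3WT libraries. A Suz12 peak lay at the site in K27M and none in H3WT. Neither list had a Ring1b peak at Cdkn2b, the neighbouring gene for p15Ink4b.

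**Figure D2:**
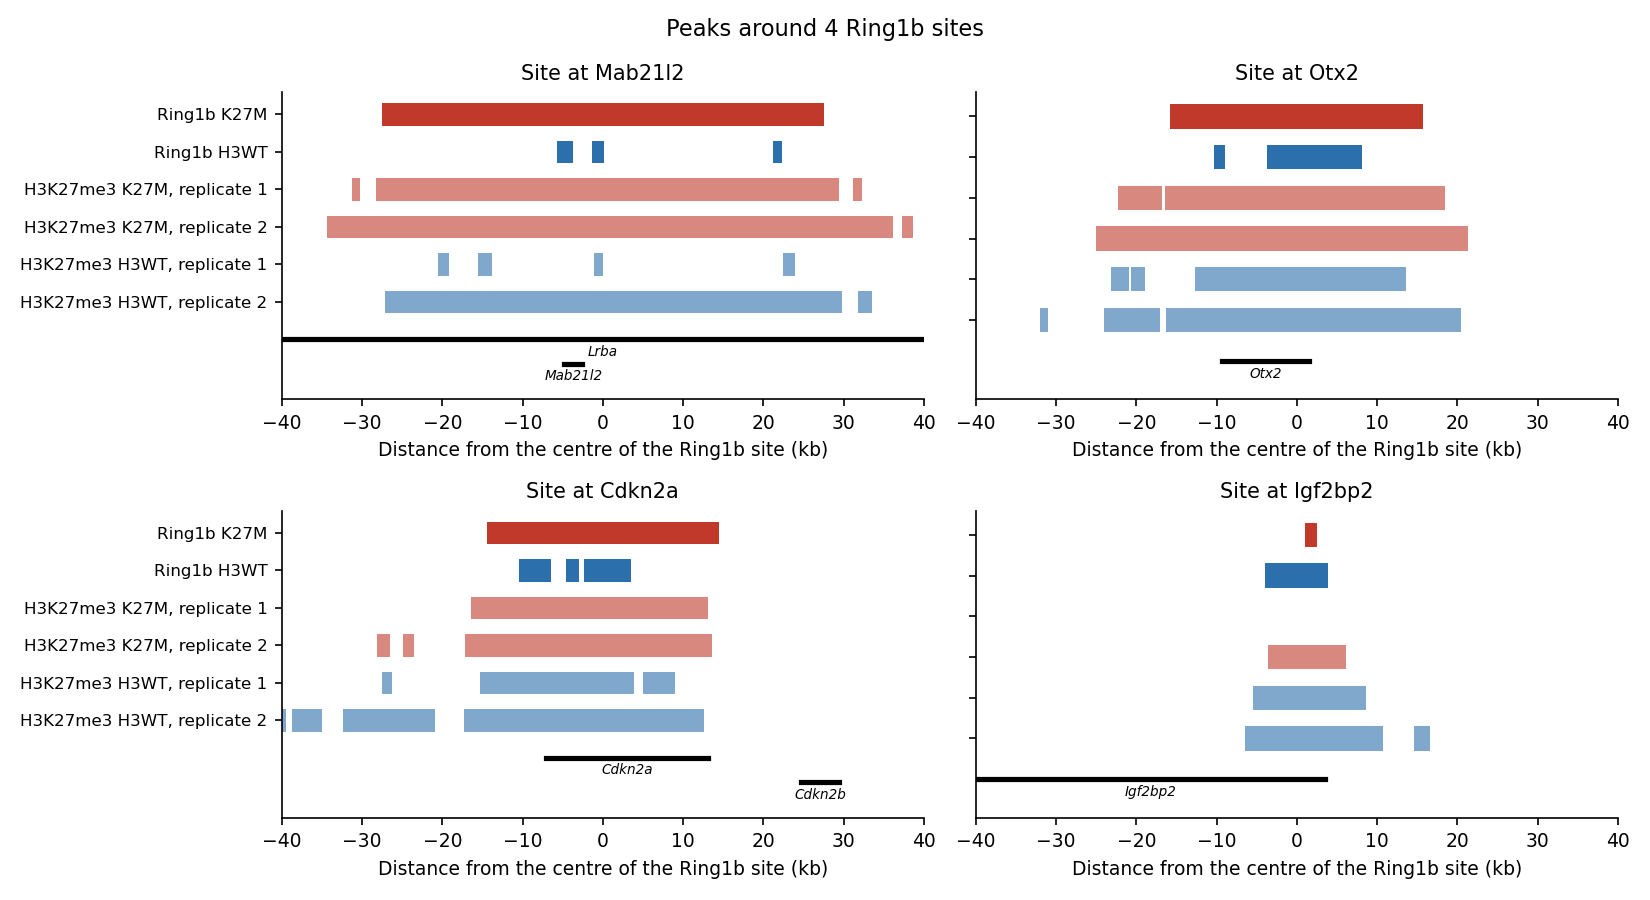
Peaks within 40 kb of the centre of 4 Ring1b sites (x axis, distance in kb), with 1 row per library: Ring1b in K27M and H3WT, then H3K27me3 in 2 K27M and 2 H3WT libraries. Bars are called peaks and black lines are genes. At Mab21l2, Otx2 and Cdkn2a a single K27M Ring1b peak spans 3, 2 and 3 H3WT peaks, and at Igf2bp2 the K27M peak of 1.45 kb compares with 7.85 kb in H3WT.

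Among shared sites, the largest losses of Ring1b length in K27M were smaller than the largest gains. Igf2bp2, which encodes an RNA-binding protein of fetal growth and stem cells, had 1.45 kb in K27M and 7.85 kb in H3WT at its site (chr16:22155888-22163737). H3K27me3 covered 0 and 7.53 kb of the site in the K27M libraries and all 7.85 kb in both H3WT libraries. Its relative Igf2bp3 had 15.1 kb in K27M and 17.8 kb in H3WT. Stxbp5l, a synaptic vesicle regulator, had 2.91 kb in K27M and 6.03 kb in H3WT at the site on its gene end, and Dock3, a guanine nucleotide exchange factor of axon growth, had 1.89 kb in K27M and 3.46 kb in H3WT. Igf2bp2 and Stxbp5l both lie on chromosome 16, where K27M had less Ring1b length than H3WT, as described below. The other 4 of the 8 largest losses at shared sites were a site inside Stk31, a site inside Zfhx4, a site 14.8 kb from an end of Calca and 1 site with no gene end within 50 kb.

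The widest site of K27M alone was a 9.71 kb peak at Tbx4, a T-box gene of hindlimb and lung development, with 0 kb in H3WT (chr11:85885842-85895552). It was followed by 9.01 kb at Ferd3l, a bHLH factor of the floor plate, and, after 2 sites with no gene end within 50 kb, by 7.14 kb at a site 14.2 kb from Olig3, a bHLH factor of dorsal spinal cord progenitors. The sites at Tbx4, Ferd3l and Olig3 had H3K27me3 peaks in all 4 libraries. The widest site of H3WT alone was 11.2 kb inside Stxbp5l, again on chromosome 16. It was followed by 8.06 kb inside Dazl, which encodes a germ cell RNA-binding protein. Next came 5.09 kb over the adjacent ends of Tmem126b, a mitochondrial assembly factor, and Dlg2, a synaptic scaffold. At these 3 sites K27M replicate 1 had no H3K27me3, and K27M replicate 2 had 10.0, 2.42 and 3.40 kb of it. Both H3WT libraries had the mark at each, with 11.2, 8.06 and 4.27 kb in replicate 1 and 11.2, 8.06 and 4.81 kb in replicate 2.

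Developmental gene clusters were examined as 26 loci with 20 kb on either side. Ring1b was found at 24 of them, and K27M had the greater Ring1b length at all 24, with at least 1.5-fold at 13 of the loci. Over all 26 loci together the ratio was 1.49, close to the 1.46 over all Ring1b peaks of the libraries. The 4 Hox clusters together had 520.8 kb in K27M and 409.1 kb in H3WT, a 1.27-fold difference, and 23 peaks in K27M stood against 52 in H3WT. Loci other than Hox had 563.0 kb in K27M and 319.9 kb in H3WT, a 1.76-fold difference. Suz12 length over the Hox clusters was 287.6 kb in K27M and 286.9 kb in H3WT, whereas over the other loci it was 288.7 kb in K27M and 155.2 kb in H3WT. The Hox sum joins opposite differences: Suz12 covered 117 kb in K27M and 62.5 kb in H3WT at Hoxa, but 46.9 kb in K27M and 62.6 kb in H3WT at Hoxb, 65.2 kb in K27M and 78.6 kb in H3WT at Hoxc, and 58.1 kb in K27M and 83.1 kb in H3WT at Hoxd.

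Within Hoxa, which sets position along the body axis, the difference lay at the 3′, anterior end. In windows of 10 kb to either side of the gene ends, Hoxa2 had 21.1 kb of Ring1b in K27M and 2.30 kb in H3WT, and Hoxa3 had 38.6 kb in K27M and 23.9 kb in H3WT. At Hoxa9, Hoxa10, Hoxa11 and Hoxa13 the windows were filled in both libraries, with the same 24.3, 29.7, 23.7 and 22.0 kb in each. H3K27me3 in the Hoxa2 windows was also longer in K27M, at 20.2 and 22.4 kb in the K27M libraries against 2.41 and 9.85 kb in the H3WT libraries.

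Among the other loci, the Tbx2 and Tbx4 pair had 24.2 kb in K27M and 4.87 kb in H3WT. The Irx3, Irx5 and Irx6 cluster of Iroquois homeobox genes had 28.8 kb in K27M and 9.59 kb in H3WT. Zic1 and Zic4, zinc finger genes of the cerebellum and dorsal neural tube, had 56.9 kb in K27M and 28.8 kb in H3WT. The locus of Nkx2-2, Nkx2-4, Pax1 and Foxa2, ventral patterning genes, had 98.8 kb in K27M and 54.7 kb in H3WT. Wnt6 and Wnt10a, neighbouring Wnt ligands, had 8.24 kb in 3 K27M peaks and 0 kb in H3WT. The smallest ratio was at Tbx3 and Tbx5, with 5.41 kb in K27M and 4.97 kb in H3WT, and its direction turned round when the flanks were left out. The Myf5 and Myf6 pair of muscle factors and the Wnt3 and Wnt9b pair had no Ring1b peak in either list.

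**Figure D3:**
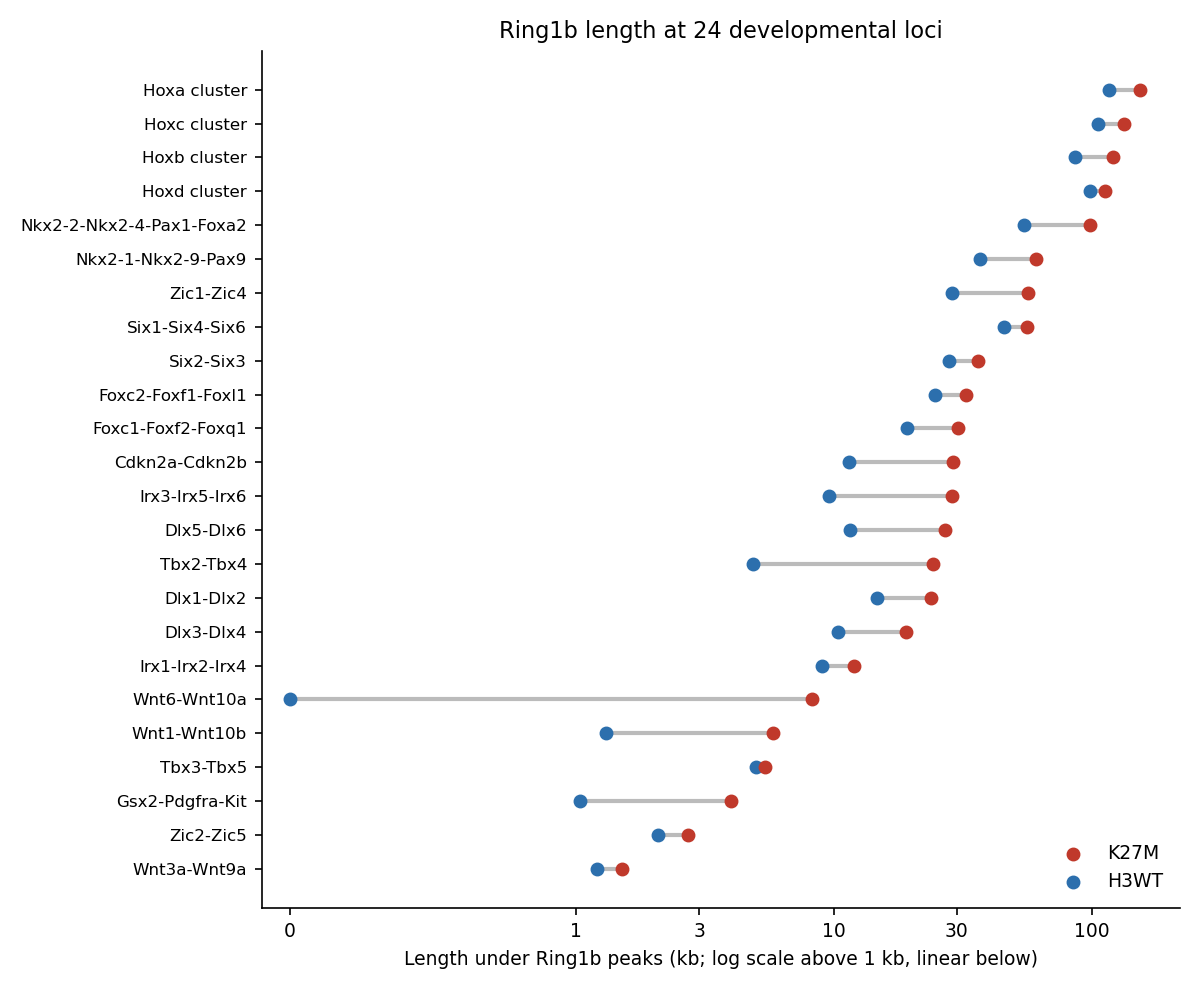
Length under Ring1b peaks (x axis, kb, logarithmic above 1 kb and linear below) at the 24 developmental loci with a peak (y axis), in K27M and H3WT, 1 library each. The K27M point lies to the right of the H3WT point at every locus shown. Hox clusters have the longest lengths and the Wnt6 and Wnt10a locus the H3WT value of 0 kb.

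Sites also clustered without reference to genes. Chains of at least 3 sites with gaps of at most 20 kb numbered 93 and held 370 sites, with 2.47 Mb of Ring1b in K27M and 1.48 Mb in H3WT. K27M had the greater length in 86 chains and H3WT in 7. These chains held 170 sites of K27M alone and 19 of H3WT alone. Sites of 1 library alone counted toward the 3 sites needed, so the choice of chains partly sets this split. Of sites outside the shared class, 207 of the 682 sites of K27M alone (30.4%, exact 95% interval 26.9 to 34.0%) lay within 20 kb of a shared site, against 23 of the 386 sites of H3WT alone (5.96%, 3.81 to 8.81%). An H3WT peak under a wide K27M peak joined the shared site, so this contrast partly follows from the difference in width. The chain with the largest difference, chosen after its values were seen, ran over 127.5 kb at 2300009A05Rik and Iqch on chromosome 9 and had 86.3 kb in K27M and 24.4 kb in H3WT, over 15 sites of which 8 were in K27M alone.

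A Ring1b peak within 1 kb of a gene end was found for 1436 of 21631 protein-coding genes. It was in K27M alone for 396 genes (1.83%), in H3WT alone for 217 (1.0%) and in both for 823 (3.8%). Of the 396 genes, 67 lie in the distal part of chromosome 10. Of the 823, 161 (19.6%) lay at a site at least 1.5-fold wider in K27M, and 18 at a site at least 1.5-fold narrower. Developmental transcription factors made up the lists with the most Ring1b. Of 39 Hox genes, 36 had a peak in both libraries, 2 in K27M alone, 0 in H3WT alone and 1 in neither. Of the 36, 3 lay at wider sites, a smaller share than the 19.6% over all genes bound in both.

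Of 96 other homeobox and paired-box factors, 72 were bound in both libraries, 5 in K27M alone and 0 in H3WT alone, and 21 of the 72 lay at wider sites. The 5 were Dlx5, Gsx2, Irx3, Irx6 and Nkx2-9. Isl1, a LIM homeobox factor of motor neurons, had 26.4 kb in K27M and 14.1 kb in H3WT. Of 65 mesoderm and endoderm factors, 42 were bound in both, 3 in K27M alone (Tbr1, Tbx1 and Tbx4) and 1 in H3WT alone, and 13 lay at wider sites. Hand1, a bHLH factor of heart and trophoblast, had a site of 18.7 kb in K27M and 4.02 kb in H3WT, and Eomes, a T-box factor, 9.30 kb in K27M and 3.79 kb in H3WT. No member of these gene lists lay at a narrower site.

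Of 47 proneural and neuronal differentiation genes, 21 were bound in both libraries, 2 in K27M alone and 0 in H3WT alone, and 8 lay at wider sites. Neurog2, a proneural bHLH factor, had a site of 23.0 kb in K27M and 9.25 kb in H3WT. Ebf2, a factor of early neurons, had 10.2 kb in K27M and 4.63 kb in H3WT. Neural stem and glial progenitor genes had 7 of 33 bound in both libraries and 0 in either alone. At Nes and Hes1, an intermediate filament and a Notch target of neural stem cells, the sites were narrow, 1.37 kb (Nes) and 2.03 kb (Hes1) in K27M and 1.01 kb (Nes) and 1.81 kb (Hes1) in H3WT, and the Nes site had no H3K27me3 peak in any library. Sox1, an early neural factor, had 4.01 kb in K27M and 1.35 kb in H3WT. Of 23 astrocyte and oligodendrocyte genes, 1 was bound in both, and Slc1a2, the glial glutamate transporter, and Ugt8a, a myelin lipid enzyme, were bound in K27M alone with 4.43 kb (Slc1a2) and 2.60 kb (Ugt8a), against 0 kb in H3WT.

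Of 60 genes of the Wnt, Bmp, Hedgehog and Fgf pathways, 12 were bound in both libraries, 10 in K27M alone and 2 in H3WT alone, with 2 at wider sites and Gli3, a Hedgehog effector, at a narrower one. Wnt10a had 6.11 kb in K27M, Fgf8 3.80 kb and Wnt11 3.32 kb, with 0 kb in H3WT for all 3. Wnt1 had 5.82 kb in K27M and 1.30 kb in H3WT. These are ligands, and the 10 genes of K27M alone also included the ligand Shh and the Wnt inhibitor Dkk1. The 2 of H3WT alone were Fgf20 and Grem1, a Bmp antagonist.

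Of 27 PDGF and receptor tyrosine kinase genes, 4 were bound in both, 3 in K27M alone and 0 in H3WT alone. Pdgfra, the PDGF receptor of glial progenitors, was among the 3, with 1.66 kb in K27M and 0 kb in H3WT. Of 17 cell cycle inhibitors, 3 were bound in both, Gadd45b in K27M alone, and Gadd45a and Gadd45g, stress response genes, in H3WT alone with 1.45 and 1.51 kb. Of the 3, Cdkn2a lay at a wider site and Rb1, the retinoblastoma gene, at a narrower one. Gadd45b lies in the distal part of chromosome 10.

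Genes for Polycomb proteins were also bound. Of 26 genes for PRC1 subunits, 7 were bound in both libraries, 1 in K27M alone and 0 in H3WT alone. In windows of 10 kb to either side of the gene ends, 4 of these genes had the greater length in K27M and 4 in H3WT. The median site ratio was 0.916, and only Pcgf1 lay at a wider site. Pcgf1, the Pcgf subunit of the variant complex with Kdm2b, had a site of 16.2 kb in K27M and 6.29 kb in H3WT. Bmi1, a Pcgf subunit of canonical PRC1, had 10.8 kb in K27M and 5.46 kb in H3WT in the 10 kb windows, although its own site was 2.17 kb in K27M and 2.69 kb in H3WT. Rnf2, the gene of Ring1b itself, and its paralogue Ring1 had no peak in either list. Of 19 genes for PRC2 subunits and H3K27 enzymes, Ezh2 was bound in both libraries and Aebp2, Epop and Jarid2, accessory subunits, in K27M alone.

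Lists outside development had smaller shares bound than the lists of developmental transcription factors. The share bound in both libraries was 9.38% for imprinted genes and 9.09% for germline genes, against 3.8% of all genes. It was 7.02% for ion channels and neurotransmitter receptors and 5.88% for housekeeping genes. Imprinted genes had 3 of 32 bound in both, 1 in K27M alone (Igf2) and 1 in H3WT alone (Phlda2), and the site at Magel2 was 26.9 kb in K27M and 15.1 kb in H3WT. Germline genes had 3 of 33 bound in both and 0 in either alone. Ion channels and neurotransmitter receptors had 4 of 57 bound in both, 0 in K27M alone and 3 in H3WT alone. Of 34 housekeeping genes, Actb and Pgk1 were bound in both libraries and Actg1 in K27M alone. No gene of 25 mesenchymal, endothelial and microglial markers had a Ring1b peak at a gene end. Without a second library per genotype, these counts describe the lists and leave the difference between genotypes untested.

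The widest Ring1b peaks carried H3K27me3 in both genotypes, and peaks without it were narrow. H3K27me3 was present in both libraries of the same genotype at 936 of 1808 K27M peaks (51.8%, exact 95% interval 49.4 to 54.1%) and at 1085 of 1754 H3WT peaks (61.9%, 59.5 to 64.1%). The median width of these peaks was 3.17 kb in K27M and 2.17 kb in H3WT, and they included all 180 K27M and all 79 H3WT peaks of at least 10 kb. Peaks with H3K27me3 in neither library numbered 721 in K27M and 548 in H3WT, with a median width of 1.42 kb in K27M and 1.37 kb in H3WT. The widest of them measured 3.75 kb in K27M and 3.13 kb in H3WT. None of these peaks had a Suz12 peak in the same genotype. Counted by site, the mark was in both libraries of the same genotype at 51.7% of 1802 sites with a K27M peak. For the 1506 sites with an H3WT peak the share was 56.2%, a smaller gap than by peak. The H3WT lists of H3K27me3 also cover more length, and the part of this in the gap was not tested. Counted by gene rather than by peak, 508 of the 1219 genes with K27M Ring1b had H3K27me3 at a gene end in both K27M libraries. Over all 21631 genes the count was 979 (4.53%). For the H3WT libraries the counts were 523 of the 1040 genes with H3WT Ring1b and 2303 of all genes (10.7%).

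The widening lay mostly where H3K27me3 was present in both genotypes. At the 603 shared sites with H3K27me3 in all 4 libraries, the median ratio of K27M over H3WT length was 1.36 and 235 sites (39.0%) were at least 1.5-fold wider in K27M. At the 384 shared sites with H3K27me3 in none of the 4, the median ratio was 1.03 and 18 sites (4.69%) were that much wider. The gap was also seen among sites of like width. Between 1 and 2 kb mean width, 30.3% of the 122 marked sites and 5.09% of the 334 unmarked sites were wider, and between 2 and 4 kb 45.0% of 169 marked sites and 1 of 50 unmarked sites. At the 58 shared sites marked in both H3WT libraries but in only 1 K27M library, the median ratio was 0.961, with 4 sites wider and 6 narrower.

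**Figure D4:**
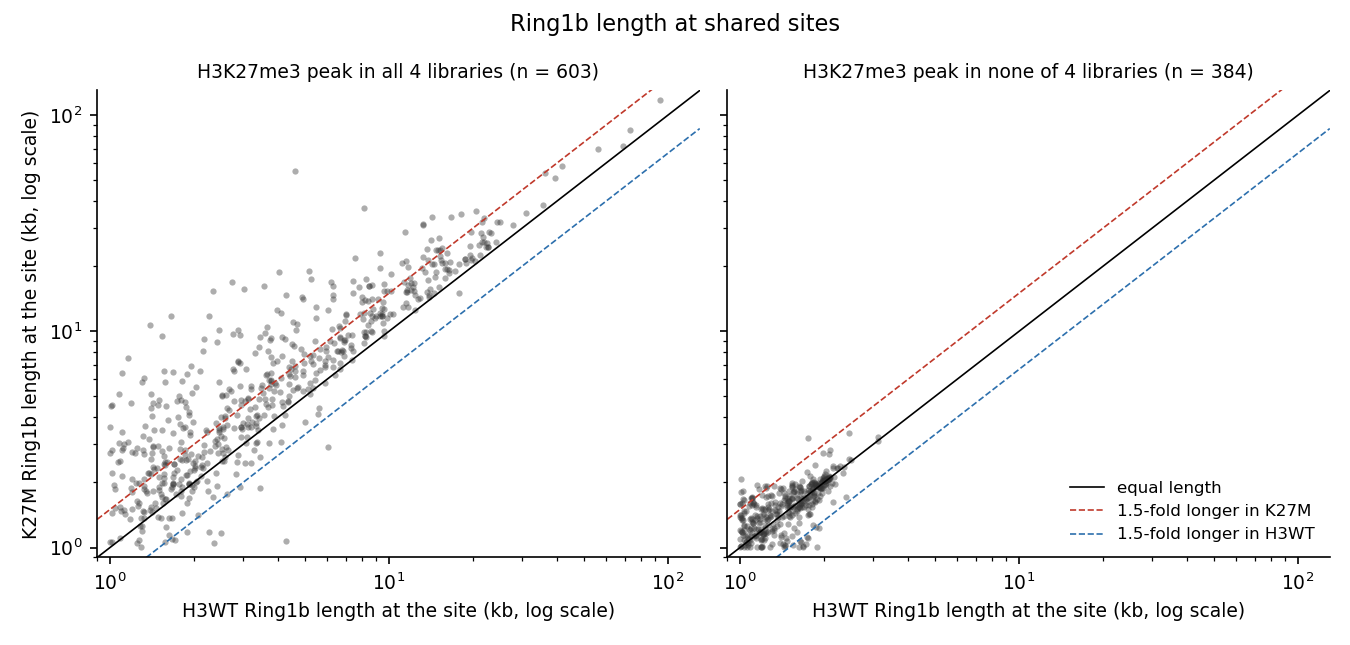
Ring1b length at each shared site in K27M (y axis) and H3WT (x axis), in kb on log scales, for the 603 sites with an H3K27me3 peak in all 4 libraries and the 384 with none. Each point is 1 site, the solid line marks equal length and the dashed lines 1.5-fold. Marked sites lie mostly above the solid line over the whole range of widths, and unmarked sites lie around it with few over 3 kb.

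The extra K27M length itself lay mostly under the mark, as did the length under peaks of both libraries. Of the 1.90 Mb at shared sites that H3WT Ring1b peaks did not cover, 93.2 and 95.8% lay under K27M H3K27me3 peaks. Under those of the H3WT libraries lay 85.3 and 94.6%. For the 4.49 Mb under Ring1b peaks of both libraries, the shares were 80.4 and 85.3% in K27M and 82.8 and 86.0% in H3WT. Suz12 peaks covered 26.0% of the extra length in K27M and 4.99% in H3WT, against 51.2 and 36.1% of the 4.49 Mb. At the 268 wider sites, H3K27me3 was present in both K27M libraries at 238 (88.8%, 84.4 to 92.3%) and in both H3WT libraries at 239 (89.2%, 84.8 to 92.6%). Suz12 was present at 61.2% of these sites in K27M and 31.3% in H3WT. At the shared sites within 1.5-fold, Suz12 was present at 30.5% in K27M and 26.2% in H3WT, and at 1 and 3 of the 31 narrower sites. The Suz12 lists themselves hold 1252 peaks in K27M and 631 in H3WT. The part of list size in these differences was not tested.

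Sites of 1 library alone showed another balance. Of the 682 sites of K27M alone, 324 (47.5%) had H3K27me3 in both K27M libraries, and 344 (50.4%) had it in both H3WT libraries, where no Ring1b peak was called. Of the 386 sites of H3WT alone, 46 (11.9%, 8.86 to 15.6%) had H3K27me3 in both K27M libraries and 181 (46.9%, 41.8 to 52.0%) had it in both H3WT libraries. The first value is set by K27M replicate 1, the shortest list: replicate 1 marked 11.9% of these sites and replicate 2 marked 42.5%, against 47.2 and 59.6% in the H3WT replicates. The mark was in neither K27M library at 222 sites (57.5%) and in neither H3WT library at 155 (40.2%). The H3WT lists of H3K27me3 cover more of the genome than the K27M lists, and the part of this in the difference was not tested.

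**Figure D5:**
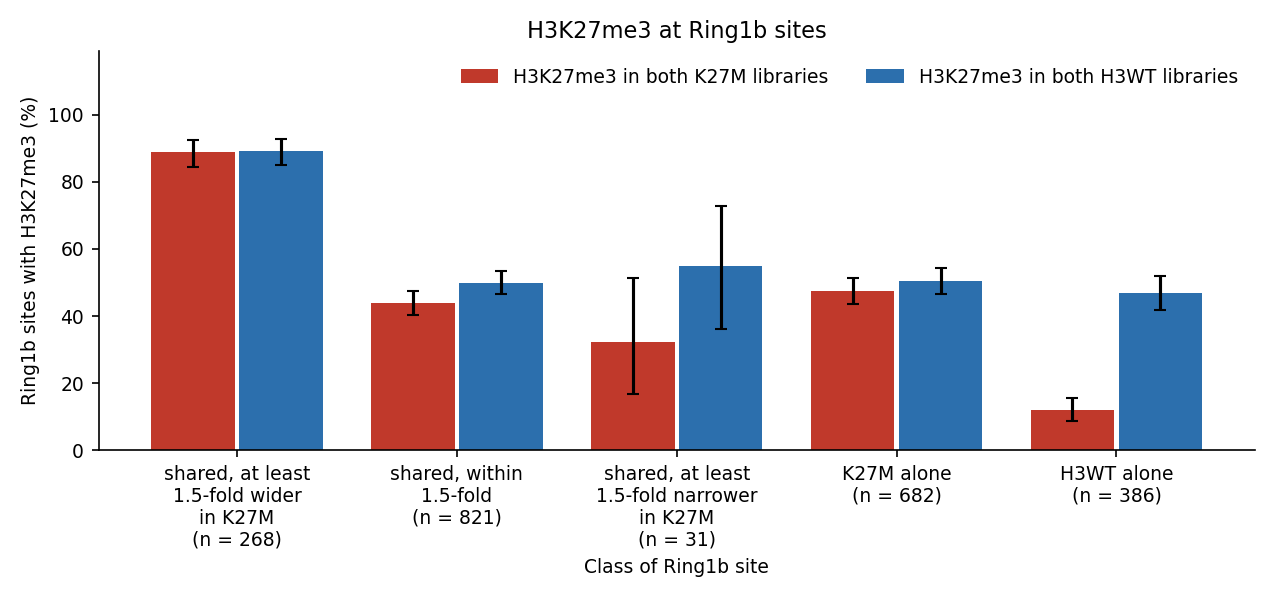
Share of Ring1b sites (y axis, %) with an H3K27me3 peak in both K27M libraries or in both H3WT libraries, by class of site (x axis); error bars are exact 95% binomial intervals, which cover counting only. The 268 wider sites are marked in 88.8% of cases in K27M and 89.2% in H3WT, and the 386 sites of H3WT alone in 11.9% in K27M and 46.9% in H3WT; K27M replicate 2 by itself marks 42.5% of the 386.

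Position differed between the classes. A gene end lay within 1 kb of 62.3% of the wider shared sites, 72.5% of the shared sites within 1.5-fold, 50.1% of the sites of K27M alone and 51.6% of those of H3WT alone. Sites outside genes made up 24.6% of those of K27M alone and 21.0% of those of H3WT alone.

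Part of the K27M-alone class lay in 1 chromosome region. Chromosome 10 from 70 Mb on, a boundary chosen after the data were seen, held 110 K27M peaks and 27 H3WT peaks, with 86 sites of K27M alone and 1 of H3WT alone. Of the 86, 68 had no H3K27me3 peak in either K27M library. Among the 655 genes of the region, 67 (10.2%) had Ring1b in K27M alone, against 1.57% of all other genes. On the other chromosomes K27M had 1665 and H3WT 1684 peaks, with a length ratio of 1.43. The greater length in K27M was thus present without chromosome 10 and the greater peak number was not. Counted by site, these chromosomes held 1074 shared sites, 585 of K27M alone and 369 of H3WT alone, so K27M had peaks at more sites. Chromosomes 1 and 16 differed the other way, with 52 and 37 K27M peaks against 83 and 53 H3WT peaks. Copy number was not measured, and its part in these differences was not tested.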

How the data were processed

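The submitters' processing notes name Bowtie 1.1.2 and mm10, a mouse genome build. How peaks were called, at what threshold and against which control, and how deeply each library was read, is not given in the sources used here. The deposited lists hold the chromosome, start and end of each peak, called per library, and a score column that is 0 in every line of both Ring1b lists, so the authors' lists give no height or p-value. A peak list shows where a threshold was passed, not how much protein was bound.

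Touching peaks of a library were merged, and peaks of both Ring1b libraries overlapping by at least 1 bp formed a site. Covered length in K27M over that in H3WT gave the width ratio, called from 1.5-fold. Widths were computed in Python 3.11.15 with numpy 2.4.6 and pandas 2.3.3, and the exact binomial intervals (Clopper-Pearson, 95%) with scipy 1.17.1; the script was tested on simulated sites. No test between genotypes was made. The RefSeq gene table (GRCm38.p6, 21631 protein-coding genes used) gives no strand, so a gene was bound where a peak lay within 1 kb of either end. Lengths given for a gene are those of its site, or, for Hoxa genes, Bmi1 and genes with a peak in 1 library alone, those within 10 kb of either gene end. The planned share of the genome under H3K27me3 was replaced by the covered length, since no genome was used here.

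Named were Rnf2, Ring1, Bmi1, Cdkn2a, Cdkn2b and Pdgfra, the genes of the 8 shared sites with the largest gain and the largest loss, those of the 8 widest sites of each library alone, up to 4 members of each of 16 gene lists by difference in length, and the 26 loci. Genes named to account for a small count were chosen after their values were seen. The members, lists and loci were chosen with earlier results of these data known. All 633 list entries matched a gene. A few genes that the naming rule takes are not reported here.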

Additional observations from a re-analysis of the deposited data

How the results depend on the processing

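The greater Ring1b length in K27M kept its direction under each alternative run: peaks of at least 2 kb, peaks merged within 1 or 5 kb, and, chosen after seeing the data, leaving out chromosome 10 from 70 Mb. The log2 ratio of covered length was 0.54 as reported and lay between 0.48 and 0.73. The log2 ratio of peak number was 0.04 as reported and -0.024 without chromosome 10 from 70 Mb, so the number of peaks has no stable direction. Sites of K27M alone still outnumbered those of H3WT alone without that region, 596 against 385. With peaks of at least 2 kb, 443 sites were shared, 275 were K27M alone and 84 H3WT alone, 152 shared sites were wider in K27M and 2 narrower, and 151 genes were bound in K27M alone, 43 in H3WT alone and 330 in both. Fewer peaks enter that setting by construction. With a 2-fold threshold, 132 sites were wider and 10 narrower. Of 69 locus lengths under other flanks or equal numbers of peaks, 68 kept K27M the longer; the exception was Tbx3 and Tbx5 without flanks, at -1.44 on the log2 scale. Zic1 and Zic4 without flanks had 1.73.

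The share of Ring1b peaks with H3K27me3 was lower in K27M than in H3WT under each alternative. Counted by site rather than by peak, the gap was smaller, 51.7% in K27M and 56.2% in H3WT. With 1 H3K27me3 replicate left out, the share by peak was 51.8 to 60.1% in K27M and 62.0 to 68.6% in H3WT. It was 48.6% in K27M and 58.6% in H3WT where the mark had to cover 50% of the peak, and 87.5% in K27M and 89.8% in H3WT for peaks of at least 2 kb. At sites of H3WT alone, the share with K27M H3K27me3 was 11.9% in replicate 1 and 42.5% in replicate 2. No paired analysis was possible because there is 1 Ring1b library per genotype. Read depth is unknown, so a site without a called peak is not shown to lack Ring1b.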
